A study of Mus musculus with 6 samples.

Results

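The 10 genes described here encode immediate early transcription factors and regulators: the zinc finger factor Egr1, the AP-1 subunits Fos, Fosl2, Jun, Junb and Jund, the small Maf protein Maff, the response genes Ier2 and Ier3, and the RNA decay factor Zfp36. They were chosen by name, with earlier results of these data known. Each was read from an array row annotated with that single symbol, and all 10 were found among 19938 named genes. Signals came from 6 whole-transcript arrays hybridised with total RNA of epithelial cell preparations from mouse jejunum. The 3 transgenic animals carried a doxycycline-driven Musashi transgene (TRE) together with R26-M2rtTA, and the 3 control animals carried R26-M2rtTA alone. Both groups received doxycycline in drinking water for 24 h. The sources used here give neither age nor strain. M2rtTA is the doxycycline-dependent activator, and the R26 locus is known for expression in many tissues. Other tissues were not analysed here.

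The transgene is Msi1 in the series text but MSI2 in the genotype labels. Msi1 had log2 signals of 12.51, 12.68 and 12.62 on the transgenic arrays, against 6.95, 7.03 and 6.86 on the control arrays, and Msi2 had 8.57, 8.08 and 8.01 on the transgenic arrays, against 8.59, 8.71 and 8.62 on the control arrays. The Msi1 signals followed the series text, and no transgenic array had more Msi2 signal than a control. Transgenic replicate 1 was unlike the other 5 arrays. Across genes it correlated with transgenic replicates 2 and 3 at 0.951 and 0.947, while those replicates correlated with each other at 0.996 and the controls among themselves at 0.995 to 0.996. Counts of calls are therefore given with and without it. Over all genes, 1204 (6.04%) were higher and 1164 (5.84%) lower in transgenic epithelium at an adjusted p under 0.05 (limma, Benjamini-Hochberg over all genes). Without transgenic replicate 1 these shares were 14.0% and 14.5%.

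Immediate early genes are transcribed within minutes of a stimulus, such as a growth factor or stress, from factors already present in the cell. MAP kinases switch on ternary complex factors and SRF at the Egr1 and Fos promoters and phosphorylate Jun, and FOS and JUN proteins pair through leucine zippers to form AP-1, which binds DNA. In the intestine these genes are known from responses to growth factors, to injury and to the handling of tissue during cell isolation.

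Of the 10 genes, 3 rose in transgenic epithelium and 0 fell. Egr1 was 5.92-fold higher (95% interval 3.74 to 9.35), Maff 2.07-fold higher (1.67 to 2.57) and Zfp36 1.75-fold higher (1.27 to 2.42), each with n = 3 arrays per group. Fos had a ratio of 1.01 (0.811 to 1.26). At an unadjusted limma p under 0.05 the count was 4 higher and 0 lower, against 12.3% and 12.7% of all genes. The share of all genes that rose was 6.04%. With the dimmest 40% of genes removed, which kept all 10 genes, 1202 genes were still higher and 1138 lower. The share among the genes kept was thus larger than 6.04%. Without transgenic replicate 1, Jun and Ier2 also passed, which made 5 of 10 higher and 0 lower, against 14.0% of all genes higher. With any other array left out, 2 passed, Egr1 and Maff, against 1.80%, 1.84% and 2.09% of all genes higher without control replicate 1, 2 and 3 and 2.83% and 4.77% without transgenic replicate 2 and 3. The median difference of the 10 genes was 0.63 log2 units (0.42 without transgenic replicate 1), beside -0.04 over all genes. For 6 of the 10 all transgenic arrays lay above all control arrays, a pattern that 16.0% of all genes showed. With 3 arrays a group the smallest two-sided p of an exact permutation test is 0.1, and each of those 6 genes had it. Full separation always gives this value, so it adds nothing to the separation itself.

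**Figure D1:**
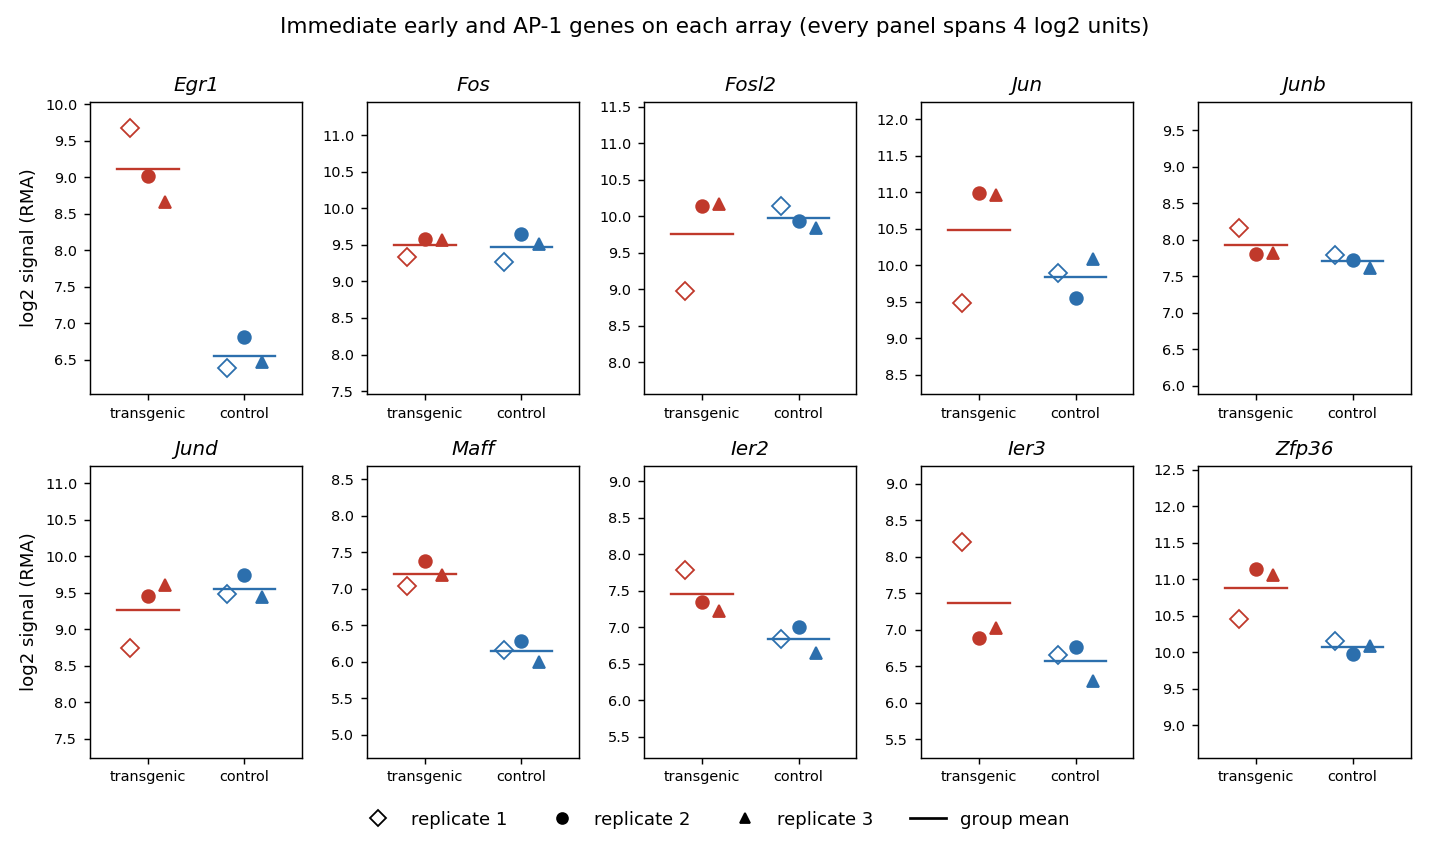
Log2 signal (RMA) of each of the 10 genes on the 3 transgenic arrays (red, left) and the 3 control arrays (blue, right). Marker shapes give the replicate number, the open diamond is replicate 1 and lines are group means. The groups are fully separated for Egr1, Maff, Zfp36, Ier2, Ier3 and Junb, and transgenic replicate 1 lies below the control arrays for Jun, Fosl2 and Jund.

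RefSeq promoter windows (build GRCm38.p6) matched 8 of the 10 genes, in 10 windows, since Maff had 3 start sites. Egr1 and Ier2 had no window, so no motif was searched for them. Shown are the 250 bases before the start of Maff and Zfp36, which rose, of Jun, which passed without transgenic replicate 1, and of Fos, which passed in neither setting. Of the 3 Maff windows the one with the most motif matches (2) is shown. Capitals mark the motif matches, and each sequence is written 5′ to 3′ on the gene's strand.
Maff, middle of its 3 start sites (chr15:79347270-79347519, plus strand): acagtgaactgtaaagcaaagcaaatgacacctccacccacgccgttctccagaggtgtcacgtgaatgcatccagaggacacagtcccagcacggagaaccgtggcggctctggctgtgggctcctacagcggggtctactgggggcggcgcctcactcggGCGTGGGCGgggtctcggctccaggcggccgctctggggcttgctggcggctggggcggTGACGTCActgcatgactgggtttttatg
Zfp36 (chr7:28379229-28379478, minus strand): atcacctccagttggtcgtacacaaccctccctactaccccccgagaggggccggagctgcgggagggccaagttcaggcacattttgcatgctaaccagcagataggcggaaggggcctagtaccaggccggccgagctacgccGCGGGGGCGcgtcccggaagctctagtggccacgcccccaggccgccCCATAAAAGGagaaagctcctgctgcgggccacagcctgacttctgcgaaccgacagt
Jun (chr4:95052223-95052472, minus strand): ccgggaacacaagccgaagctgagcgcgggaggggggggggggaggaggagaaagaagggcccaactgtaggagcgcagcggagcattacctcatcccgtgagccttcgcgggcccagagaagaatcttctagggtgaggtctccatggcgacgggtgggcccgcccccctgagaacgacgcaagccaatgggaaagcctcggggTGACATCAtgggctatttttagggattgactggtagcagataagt
Fos (chr12:85473640-85473889, plus strand): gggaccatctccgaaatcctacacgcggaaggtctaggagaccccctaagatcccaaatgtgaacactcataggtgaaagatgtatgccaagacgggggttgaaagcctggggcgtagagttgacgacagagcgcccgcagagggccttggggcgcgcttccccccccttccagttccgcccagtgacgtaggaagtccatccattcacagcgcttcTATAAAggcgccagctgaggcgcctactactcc

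The motifs were searched on both strands, and no match overlapped one of another motif. The EGR site GCGNGGGCG was found in 3 of the 10 windows and in 4.7% of 32851 windows of all genes. The 3 were windows of Maff (starting 88 bases before the start), Zfp36 (105 bases) and Fosl2 (79 bases). G and C made up 64.0%, 64.8% and 64.4% of these windows, beside a median of 52.4% over all windows. The fixed letters of this motif are all G or C, and the part of base content in the matches was not tested. The CRE-like octamer TGACNTCA, to which CREB, ATF and JUN dimers bind, was found in windows of Jun (45 bases before the start) and Maff (29 bases), and in 7.49% of all windows. The Maff window of the last start site also held it, which made 3 of the 10 windows. The Maff window of the first start site held no match to any motif. The CArG box, the SRF site, was found in Zfp36 alone of the 8 genes (58 bases before the start) and in 1.47% of all windows. The TATA box TATAAA was found in the Fos window (33 bases before the start) and in 12.4% of all. The AP-1 heptamer TGANTCA and the ETS site CCGGAAGT had no match in the 10 windows and were found in 6.75% and 2.88% of all windows. A match is a description of the letters and does not show binding. Bases outside the windows were not searched, so a missing match does not mean that a gene lacks the site.

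Egr1 (row 10454782, chromosome 18), a zinc finger factor induced by growth factors and stress, had the largest difference of the 10 genes. Its log2 signals were 9.68, 9.02 and 8.66 on the transgenic arrays, against 6.39, 6.81 and 6.47 on the control arrays. All transgenic values lay above all control values, with transgenic replicate 1 the highest. The means were 9.12 ± 0.52 in transgenic and 6.56 ± 0.23 in control epithelium (SD, n = 3 each), a difference of 2.57 (SE 0.272, limma adjusted p = 0.0043), which ranked 41 among 19938 differences, from the most positive down. The difference was 2.29 without transgenic replicate 1 (limma adjusted p = 2.86e-05), and the call held with each array left out in turn (limma adjusted p up to 0.0337).

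The NAB proteins bind EGR factors and repress their activity. Nab2, itself a known EGR1 target, had log2 signals of 8.21, 7.61 and 7.81 on the transgenic arrays, against 9.16, 9.02 and 8.81 on the control arrays. It fell by 1.12 log2 units (SE 0.177, limma adjusted p = 0.0138), with all transgenic arrays below all controls. Leaving out control replicate 1 or 2 ended the Nab2 call (limma adjusted p up to 0.0725). Nab1 differed by 0.26 and did not pass (limma adjusted p = 0.603), with 9.49 on transgenic replicate 1 against 8.66 and 8.56 on replicates 2 and 3, and its sign turned without replicate 1 (-0.03).

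Among the FOS proteins, which cannot pair with themselves and need a JUN partner, neither member passed. Fos (row 10397346, chromosome 12) had 9.33, 9.58 and 9.57 on the transgenic arrays, against 9.27, 9.65 and 9.51 on the control arrays. The groups overlapped, and the means were 9.49 ± 0.14 in transgenic and 9.48 ± 0.19 in control epithelium (SD, n = 3 each). The Fos difference was 0.01 log2 units (95% interval -0.30 to 0.33, limma adjusted p = 0.966), its sign turned with quantile normalization (-0.03), and it was 0.10 without transgenic replicate 1. The interval with all arrays excludes a change as large as the estimate of Egr1, Maff or Zfp36 but not a small one.

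Fosl2 (row 10520862, chromosome 5), which encodes FRA2, had 8.97, 10.14 and 10.16 on the transgenic arrays, against 10.14, 9.93 and 9.84 on the control arrays. Transgenic replicate 1 lay below every other array, while transgenic replicates 2 and 3 lay just above the highest control. The Fosl2 difference was -0.21 (95% interval -1.02 to 0.60, limma adjusted p = 0.775) with all arrays and 0.18 without transgenic replicate 1 (limma adjusted p = 0.277).

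The JUN proteins pair with FOS proteins or with each other. Jun (row 10514466, chromosome 4) had 9.49, 10.99 and 10.96 on the transgenic arrays, against 9.89, 9.55 and 10.09 on the control arrays. Transgenic replicates 2 and 3 lay above every control, and transgenic replicate 1 was the lowest of the 6 arrays. With all arrays Jun differed by 0.64 (95% interval -0.39 to 1.67) and did not pass (limma adjusted p = 0.441, exact two-sided permutation p = 0.4). Without transgenic replicate 1 it rose by 1.13 (limma adjusted p = 6.37e-04) or 2.19-fold.

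Junb (row 10580282, chromosome 8), often an antagonist of Jun in growth control, had 8.16, 7.80 and 7.82 on the transgenic arrays, against 7.79, 7.72 and 7.62 on the control arrays. The groups did not overlap, but transgenic replicate 2 lay just above control replicate 1, and the difference of 0.21 (95% interval -0.09 to 0.51) did not pass (limma adjusted p = 0.37), and was 0.10 without transgenic replicate 1. Jund (row 10572456, chromosome 8), the JUN protein that resting cells express steadily, had 8.74, 9.45 and 9.60 on the transgenic arrays, against 9.48, 9.74 and 9.44 on the control arrays. The groups overlapped, with transgenic replicate 1 the lowest array. The Jund difference was -0.29 (95% interval -0.87 to 0.29, limma adjusted p = 0.552), and -0.02 without that array.

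Maff (row 10425283, chromosome 15) encodes a small Maf protein without an activation domain of its own, which pairs with NFE2L2, BACH and other factors. Its log2 signals were 7.03, 7.38 and 7.18 on the transgenic arrays, against 6.16, 6.28 and 5.99 on the control arrays. The groups were fully separated and similar in spread, 7.19 ± 0.18 in transgenic and 6.14 ± 0.15 in control epithelium (SD, n = 3 each). Maff rose by 1.05 (SE 0.128, limma adjusted p = 0.00624) and by 1.14 without transgenic replicate 1 (limma adjusted p = 1.83e-04), and kept the call with each array left out (limma adjusted p up to 0.0425).

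Ier2 and Ier3 are small immediate early proteins, Ier2 a nuclear protein and Ier3 a regulator of cell survival. Ier2 (row 10580183, chromosome 8) had 7.78, 7.35 and 7.22 on the transgenic arrays, against 6.84, 7.01 and 6.65 on the control arrays. The groups did not overlap. The difference of 0.62 (95% interval 0.20 to 1.04) did not pass over all genes (limma adjusted p = 0.0768), but Ier2 passed without transgenic replicate 1, at 0.45 (limma adjusted p = 0.0196). Ier3 (row 10444890, chromosome 17) had 8.20, 6.89 and 7.03 on the transgenic arrays, against 6.66, 6.77 and 6.30 on the control arrays. Transgenic replicate 1 lay far above all others and transgenic replicate 2 just above the highest control. The Ier3 difference was 0.80 (95% interval -0.08 to 1.68, limma adjusted p = 0.242) with all arrays and 0.39 without transgenic replicate 1 (limma adjusted p = 0.0749).

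Zfp36 (row 10561453, chromosome 7) encodes tristetraprolin, which binds AU-rich elements and speeds the decay of cytokine and immediate early mRNAs. Its log2 signals were 10.46, 11.14 and 11.06 on the transgenic arrays, against 10.16, 9.98 and 10.09 on the control arrays. The groups did not overlap, and transgenic replicate 1 was the lowest of its group. The means were 10.89 ± 0.37 in transgenic and 10.08 ± 0.09 in control epithelium (SD, n = 3 each), and Zfp36 rose by 0.81 (SE 0.191, limma adjusted p = 0.0456). The rise was 1.02 without transgenic replicate 1 (limma adjusted p = 1.03e-04), and the call was lost when any other single array was left out (limma adjusted p up to 0.173).

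**Figure D2:**
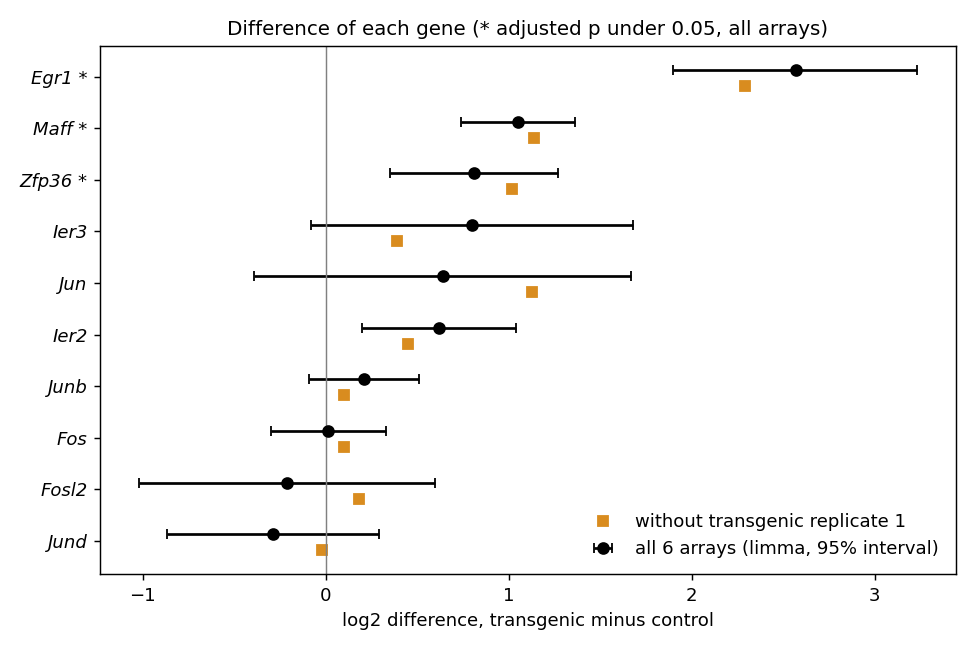
Log2 difference, transgenic minus control, of each of the 10 genes with its 95% interval from limma over all 6 arrays (black), and the difference without transgenic replicate 1 (orange). Egr1 at 2.57, Maff at 1.05 and Zfp36 at 0.81 passed with all arrays, and the Jun estimate was 0.64 with and 1.13 without that array.

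The spread within the transgenic group followed replicate 1 for most of the 10 genes. It did so least clearly for Maff, where replicate 1 lay 0.25 below the mean of replicates 2 and 3, themselves 0.21 apart. Replicates 2 and 3 differed from each other by 0.01 to 0.36 log2 units in these 10 genes, whereas replicate 1 lay a median of 0.72 away from their mean, beside a median of 0.20 over all genes. Replicate 1 was the highest transgenic array for 4 genes (Egr1, Ier2, Ier3 and Junb) and the lowest for 6 (Fos, Fosl2, Jun, Jund, Maff and Zfp36). Relative to the control mean, Ier3 was higher by 1.63 on replicate 1 and by 0.39 on the mean of replicates 2 and 3, and Egr1 by 3.12 and 2.29. For Jun the same shifts were -0.35 and 1.13, and for Fosl2 -1.0 and 0.18. The SD was larger in the transgenic than in the control group for 9 of the 10 genes, all but Fos, and for 77.0% of all genes, whose median SD was 0.17 in the transgenic and 0.09 in the control group.

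**Figure D3:**
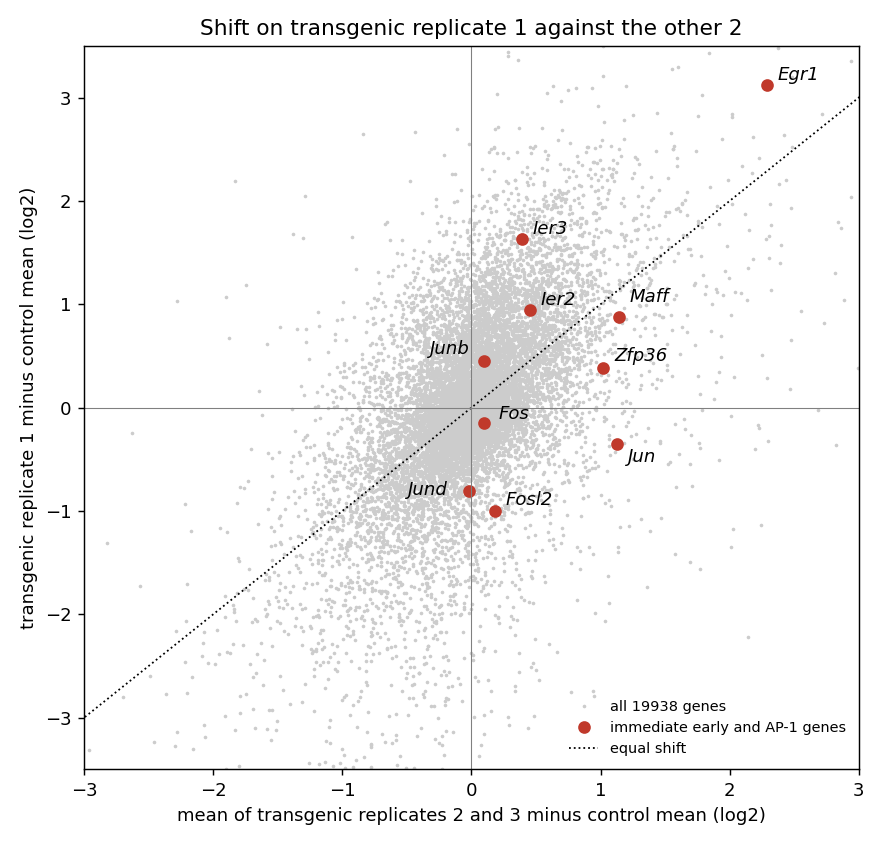
Shift from the control mean on transgenic replicate 1 (vertical axis, log2) against the shift of the mean of transgenic replicates 2 and 3 (horizontal axis, log2) for all genes (grey) and the 10 genes (red). The dotted line marks equal shifts and 159 grey genes lie outside the axes. Egr1, Ier3, Ier2 and Junb lie above the line, the other 6 genes below it, and Jun, Fosl2 and Fos have opposite signs on the axes.

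Most of the genes were short. Their genomic span in RefSeq ran from 1.2 kb for Ier3 to 21.4 kb for Fosl2, with a median of 3.04 kb, beside a median of 17.7 kb over the 19856 named genes with a span. Maff, at 12.5 kb, and Fosl2 were the longest, and Fosl2 was longer than the median of all genes.

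Other genes of the same response were counted from lists chosen for their role. The shares of all genes to set beside these counts are 6.04% higher and 5.84% lower with all arrays, 14.0% and 14.5% without transgenic replicate 1, and 12.3% and 12.7% at an unadjusted limma p under 0.05. They include dim genes, and the shares of 6.04% and 5.84% were larger once the dimmest 40% of genes were removed. Of 15 measured other AP-1 and related bZIP factors 3 rose and 0 fell (beside 6.04% of all genes higher; at an unadjusted limma p under 0.05, 5 and 0), with a median of -0.04. Atf3, a stress-induced partner of JUN, had 10.20, 11.20 and 11.17 on the transgenic arrays, against 9.09, 8.79 and 9.40 on the control arrays. It rose by 1.76 (SE 0.308, limma adjusted p = 0.0186). Atf2, the JUN partner at CRE-like sites, rose by 0.65 (limma adjusted p = 0.0185) and the small Maf gene Mafk by 0.53 (limma adjusted p = 0.0211). Atf3 and Mafk lost the call without any array but transgenic replicate 1 (limma adjusted p up to 0.086 and 0.0804), and Atf2 when a control or transgenic replicate 3 was left out (up to 0.0915). Fosl1, which encodes FRA1, had 9.25 on transgenic replicate 1 and 6.74 and 6.79 on the other transgenic arrays, against 5.87, 6.09 and 6.45 on the control arrays. Its difference of 1.46 did not pass (limma adjusted p = 0.263), but it rose without replicate 1, by 0.63 (limma adjusted p = 0.0158). Maf differed by -0.98 and did not pass (limma adjusted p = 0.313), and fell without replicate 1, by 0.36. Without that array the list had 6 higher and 1 lower, and with any other array left out 0 or 1 higher.

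Of 20 other immediate early transcription factors 3 rose and 0 fell (beside 6.04% of all genes higher; at an unadjusted limma p under 0.05, 5 and 0), with a median of 0.01. Nfil3, a bZIP repressor, rose by 2.09 (SE 0.209, limma adjusted p = 0.0036), Cebpd, a C/EBP factor of the acute phase, by 1.88 (limma adjusted p = 0.0069) and Klf6 by 0.99 (limma adjusted p = 0.0032), and all 3 kept the call with each array left out. Myc differed by 1.16 and Ier5 by 1.35, and neither passed (limma adjusted p = 0.276 and 0.123). Ier5 had 7.41 on transgenic replicate 1 and 9.04 and 9.08 on the other transgenic arrays, against 7.19, 7.02 and 7.28 on the control arrays. Myc had the reverse order within the transgenic group, 11.24 on replicate 1 and 9.29 and 9.13 on the others, against 8.56, 8.69 and 8.94 on the control arrays. Without transgenic replicate 1, 6 of the list were higher and 2 lower (14.0% and 14.5% of all genes), with Ier5 at 1.90 and Myc at 0.48.

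Of 24 other immediate early proteins 9 rose and 0 fell (beside 6.04% of all genes higher; at an unadjusted limma p under 0.05, 12 and 0), with a median of 0.45. Phlda1, a pleckstrin homology protein induced by growth factors, had 10.07, 9.67 and 9.66 on the transgenic arrays, against 6.67, 7.08 and 6.41 on the control arrays. It rose by 3.08 (SE 0.205, limma adjusted p = 0.0016), more than Egr1. The MAP kinase phosphatase gene Dusp1, which switches off p38 and JNK, rose by 1.75 (limma adjusted p = 0.0022), Ppp1r15a, which restores translation after stress, by 1.24 (limma adjusted p = 0.0017) and Errfi1, an inhibitor of the EGF receptor, by 1.21 (limma adjusted p = 0.0043). These 4 kept the call with each array left out. Plk2 and Dusp5 differed by 1.19 and 0.52 and did not pass (limma adjusted p = 0.0556 and 0.133), but rose without transgenic replicate 1, by 0.89 and 0.32. Without that array the list had 13 higher and 1 lower (14.0% and 14.5% of all genes), and with any other array left out 5 to 7 higher.

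**Figure D4:**
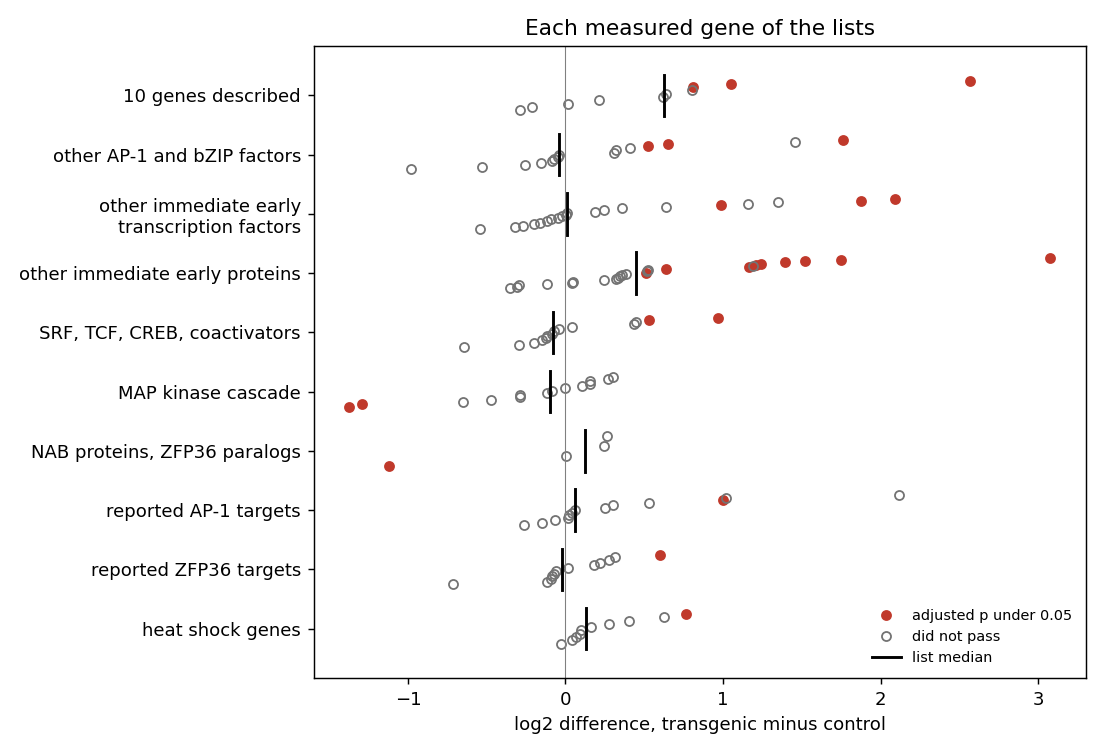
Log2 difference, transgenic minus control, of every measured gene in the 10 genes and 9 lists of related genes. Filled points passed at an adjusted p under 0.05 (limma over all genes), open points did not, and bars are list medians. The rightmost point of the 10 genes is Egr1 at 2.57, that of the other immediate early proteins is Phlda1 at 3.08, and the filled points of the MAP kinase row lie below 0.

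Genes that act upstream were counted next. Of 14 genes for SRF, ternary complex factors, CREB and coactivators 2 rose and 0 fell (beside 6.04% of all genes higher; at an unadjusted limma p under 0.05, 4 and 1), the CREB relative Atf1 by 0.97 (limma adjusted p = 0.0119) and the ternary complex factor Elk4 by 0.53 (limma adjusted p = 0.0263). Atf1 missed the threshold without control replicate 1 or 3 (limma adjusted p at most 0.0686) and Elk4 with any array but transgenic replicate 1 removed (at most 0.114). Without transgenic replicate 1 the list had 4 higher, with Crem at 0.60, and 2 lower, with the SRF coactivator gene Mrtfb at -0.87 (14.0% and 14.5% of all genes). Of 14 measured genes of the MAP kinase cascades, among 20 listed, 0 rose and 2 fell (at an unadjusted limma p under 0.05, 1 and 5), beside 5.84% of all genes lower. Mapk9, which encodes JNK2, had 7.83, 7.24 and 7.0 on the transgenic arrays, against 8.69, 8.63 and 8.64 on the control arrays, and fell by 1.29 (SE 0.212, limma adjusted p = 0.0154). Rps6ka5, which encodes MSK1, a kinase of CREB and histone H3, fell by 1.38 (limma adjusted p = 0.0201). Leaving out any control, or transgenic replicate 2, ended both calls (limma adjusted p up to 0.0784 and 0.0918). Map2k6 and Map2k1 differed by -0.65 and -0.48 without passing, and both fell without transgenic replicate 1, which gave 0 higher and 4 lower in the list.

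Reported targets of these factors were counted beside the 6.04% of all genes that rose. Of 13 measured AP-1 targets 1 rose and 0 fell (at an unadjusted limma p under 0.05, 2 and 0), with a median of 0.06: Hmox1, the heme oxygenase gene, by 1.00 (SE 0.109, limma adjusted p = 0.0047). Plaur, the urokinase receptor gene, had 10.10 on transgenic replicate 1 and 7.41 and 7.56 on the other transgenic arrays, against 6.40, 6.15 and 6.17 on the control arrays. It differed by 2.12 without passing (limma adjusted p = 0.123) and rose by 1.24 without replicate 1, where 3 AP-1 targets were higher and 0 lower. Cd44 had 10.58 on transgenic replicate 1, 8.09 and 8.04 on the other transgenic arrays, and 7.88, 7.88 and 7.89 on the control arrays, which differed by 1.02 without passing (limma adjusted p = 0.444), and by 0.18 without replicate 1 (limma adjusted p = 0.141). Of 12 mRNAs reported as ZFP36 targets 1 rose and 0 fell (at an unadjusted limma p under 0.05, 1 and 1), with a median of -0.02: Nfkbiz, by 0.60 (limma adjusted p = 0.0096, but 0.063 at most when control replicate 1 or 2 was left out). Csf2 and Ccl3 differed by 0.31 and -0.71 and did not pass, and without transgenic replicate 1 Csf2 rose by 0.60 and Ccl3 fell by 0.45, which gave 2 higher and 1 lower in the list. The ZFP36 paralog gene Zfp36l1 differed by 0.25 and did not pass (limma adjusted p = 0.243).

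Immediate early genes and heat shock genes are also known to respond to tissue dissociation. Of 10 measured heat shock genes 1 rose and 0 fell, beside 6.04% and 5.84% of all genes (at an unadjusted limma p under 0.05, 3 and 0). The cochaperone Bag3 rose by 0.76 (limma adjusted p = 0.0094, but 0.0548 at most when control replicate 1 or 2 was left out). Hsp90aa1 and Hspd1 differed by 0.62 and 0.41 and did not pass. With transgenic replicate 1 left out, 2 were higher and 0 lower, beside 14.0% and 14.5% of all genes. In that setting Hsp90aa1 rose by 0.39 (limma adjusted p = 0.0421) and Hspd1 differed by 0.13 without passing (limma adjusted p = 0.377). The summed linear signal of the list was 17930, 14159 and 13281 on the transgenic arrays and 11294, 11588 and 13183 on the control arrays, highest on transgenic replicate 1. The part of dissociation in the immediate early differences was not tested.

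The tissue label was checked against markers. Epcam had 11.80, 12.08 and 12.01 on the transgenic arrays, against 12.04, 11.94 and 12.15 on the control arrays, and Vil1 had 10.82, 11.90 and 11.87 on the transgenic arrays, against 12.17, 12.08 and 12.19 on the control arrays. The summed signal of 10 epithelial markers ran from 26424 to 40481 on the transgenic arrays, with replicate 1 the lowest, and from 41167 to 43912 on the control arrays. Of these markers 1 rose and 0 fell, beside 6.04% and 5.84% of all genes (at an unadjusted limma p under 0.05, 1 and 1). Cdh1 rose by 0.34 (limma adjusted p = 0.0415, a call lost when any array but transgenic replicate 1 was left out). When transgenic replicate 1 was left out, 1 was higher and 3 were lower, with Vil1 at -0.26, Cdx2 at -0.32 and Fabp1 at -0.48, beside 14.0% and 14.5% of all genes. Of 12 lymphocyte markers 0 passed (at an unadjusted limma p under 0.05, 0 higher and 3 lower), with a median of -1.15 (-0.55 without transgenic replicate 1), and their sum was 631, 2958 and 2927 on the transgenic arrays and 3863, 4132 and 4908 on the control arrays. Ptprc, the pan-leukocyte marker, had 5.57 on transgenic replicate 1 and 7.29 and 7.05 on the other transgenic arrays, against 7.75, 7.98 and 7.72 on the control arrays. Leaving out transgenic replicate 1 gave 6 lower lymphocyte markers and 0 higher, with Ptprc at -0.64, and leaving out control replicate 2 gave 1 lower, Jchain. In bulk samples fewer cells of a type and less RNA per cell cannot be told apart.

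Of 12 myeloid markers 2 rose, Cd14 by 1.06 and Ly6g by 4.87, and 0 fell (at an unadjusted limma p under 0.05, 3 and 2). The shares of all genes were 6.04% higher and 5.84% lower (12.3% and 12.7% unadjusted). Tyrobp and Fcer1g differed by -0.69 and -0.99 without passing. Leaving out transgenic replicate 1 gave 3 higher and 3 lower, beside 14.0% and 14.5% of all genes. Itgam was among the higher at 0.71, and the lower were Lyz2 at -1.65, Fcer1g at -0.63 and Tyrobp at -0.50. Their sum was 6367, 1399 and 1379 on the transgenic arrays and 1594, 1462 and 1738 on the control arrays. The high sum came from Ly6g at 12.23 on transgenic replicate 1, a gene named after its values were seen. The macrophage markers Csf1r and Adgre1 had log2 signals of at most 5.74 and 4.55 on any array. S100a8 and S100a9 of the same list differed by 0.01 and -0.02 without passing. Their means were 4.61 and 5.37 in transgenic and 4.59 and 5.39 in control epithelium. Of 11 stromal and endothelial markers 0 rose and 1 fell, Vim by 0.89, beside 5.84% of all genes lower (at an unadjusted limma p under 0.05, 0 and 2). Their sums were 879 to 978 on the transgenic and 1124 to 1192 on the control arrays, and Col1a1 differed by -0.13 without passing. With transgenic replicate 1 left out, 0 rose and 2 fell, with Vim at -0.71 and Dcn at -0.59, beside 14.5% of all genes lower. With 1 array other than transgenic replicate 1 left out, 0 to 2 myeloid markers rose and 0 or 1 stromal and endothelial markers fell. In those settings 1.80% to 4.77% of all genes were higher, and 324 to 807 genes were lower. No marker has a true 0 on this scale, and the lowest signals of the stromal and lymphocyte lists were those of Lum (3.58) and Cd79a (4.15). The part of these cell types in the differences of the 10 genes was not tested.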

How the data were processed

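Total RNA, 250 ng per array per the labels' protocols, was hybridised to whole-transcript Affymetrix arrays. The deposited values are log2 signals made by the authors with RMA in Partek 6.5, per the submitters' processing notes. The sources used here give no settings. RMA equalises the arrays' distributions, which hides any change in the amount of RNA per cell, and it compresses dim signals. The number of arrays limits the precision. Groups came from the sample titles. The series text calls the samples animals, so each array was 1 replicate.

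The table held 35399 rows, of which 21789 had 1 symbol in the platform annotation, 1621 several and 11989 none. Each gene was represented by its row of highest mean, giving 19938 genes, dim ones included. Each of the 10 genes had 1 row. The test was limma 3.58.1 (lmFit and eBayes, R 4.3.3) on transgenic minus control, with Benjamini-Hochberg adjustment over all genes. A gene rose or fell at an adjusted p under 0.05. The test was checked on simulated data with equal noise in both groups, its SD taken without transgenic replicate 1. The check therefore does not cover the spread that this array adds. It recovered 64% of 1.5-fold, 76% of 2-fold and 100% of 4-fold and 8-fold changes. Summed signals of markers are sums of 2 to the power of the log2 signal. Promoter sequences, spans and chromosomes are from RefSeq, build GRCm38.p6, and motifs were searched in the 250 bases before each start.

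The genes and lists were chosen with earlier results of these data known. Named were the 10 genes, Msi1 and Msi2, up to 4 passing genes per list by p, up to 2 others per list by size of difference, and Epcam, Vil1, Ptprc and Col1a1. Genes outside this rule (Cdh1, Cdx2, Fabp1, Vim, Dcn, Cd14, Ly6g, Itgam, Lyz2, Fcer1g, Tyrobp, Jchain, Csf1r, Adgre1, S100a8, S100a9, Lum and Cd79a) were named after their values were seen. The alternatives were quantile normalization, equal medians, removal of the dimmest 40% of genes, replicate blocks, array weights, eBayes with trend and robust, gene rows averaged, all rows tested, an adjusted p under 0.1 and leaving out each array in turn.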

Additional observations from a re-analysis of the deposited data

How the results depend on the processing

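The count of the 10 genes that were higher was 3, with 0 lower. It was 5 with array weights and 5 with a replicate block on the number in the sample descriptions. Higher calls among all 19938 genes grew too, from 1204 to 2846 with array weights and to 2056 with that block. That block compares 2 pairs of arrays and drops the other 2, transgenic replicate 1 and control replicate 1. It is thus not independent of leaving out transgenic replicate 1. With each array left out the count ran from 2 to 5, 5 without transgenic replicate 1 and 2 otherwise. Under the other settings it ran from 2 to 4, with 4 at an adjusted p under 0.1, where 1715 of all genes were higher. Egr1 and Maff passed under all 16 alternatives, and Zfp36 lost its call under 8 of them. Zfp36 stood at 0.81 with a limma adjusted p of 0.0515 with trend and robust settings and 0.0678 with all rows tested. Of the alternatives, an adjusted p under 0.1 could not end a call, and averaging rows left the values of these genes unchanged.

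Over all genes the counts were 1204 higher and 1164 lower. They were 384 and 349 with a replicate block on the title number, 2056 and 1963 with the block on the description number, 2846 and 2924 with array weights, and with each array left out they ran from 359 to 2800 and from 324 to 2900. The labels do not state that the numbers pair animals, so they were not taken as pairs. Deviations from the group mean correlated at -0.07, -0.168 and -0.122 for the same title number and at -0.023 to 0.153 otherwise. With 3 arrays a group, each centred on its own mean, and transgenic replicate 1 outlying, these correlations cannot decide whether animals were paired. With the replicate block on title numbers 2 of the 10 genes passed, and Zfp36 had an adjusted p of 0.104.

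Differences near 0 changed sign. Fos was -0.03 with quantile normalization, -0.01 with the replicate block on description numbers and from -0.09 to 0.10 with each array left out. Fosl2 was 0.27 with that block, 0.07 with array weights and from -0.41 to 0.18 with each array left out. Nab1 was -0.03 with that block and from -0.03 to 0.43, and Epcam 0.00 with array weights and from -0.13 to 0.00, with each array left out. None of these passed in any of these settings. The causes were not tested. Background correction and scan batches could not be varied from the summarised values.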
